A study of Homo sapiens with 6 samples.

Results

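Cancer-testis antigens of the MAGE, GAGE, PAGE, XAGE, CTAG and SSX families, together with PRAME, were examined in WM164, an established human melanoma cell line. Members were chosen by gene name alone, among the protein-coding genes of the count table, and 78 of its 58870 genes matched, out of 19986 that were protein-coding. RNA sequencing had been done on 6 libraries of WM164 cells, 3 overexpressing green fluorescent protein (GFP) as the control and 3 overexpressing T-MGM, a tethered dimer in which the melanoma isoform of MITF is joined to MAFG through a flexible linker. Both groups came from the same line and, by the study's methods, carried lentiviral constructs with the EF1α promoter and blasticidin resistance. No label said that the libraries of a group came from separate cultures, so the p-values below measure the spread between these libraries, which may be technical.

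The name rule took genes of unlike biology. MAGE genes share the MAGE homology domain, through which many of their proteins bind ubiquitin ligases; type I genes (MAGEA, MAGEB and MAGEC) lie on chromosome X and are normally expressed in male germ cells and in tumours, whereas type II genes (MAGED to MAGEL) are expressed in many normal tissues. GAGE, PAGE, XAGE and SSX genes and CTAG1 (NY-ESO-1) are also X-linked germline genes that melanomas often switch on, usually after loss of promoter DNA methylation, and several of their products are vaccine or T cell targets. PRAME, on chromosome 22, encodes a leucine-rich repeat protein that serves as a substrate receptor of a cullin-2 ubiquitin ligase and as a diagnostic marker of melanoma. The rule also took SSX2IP, a centrosome and adhesion protein named for binding SSX2, and the CTAGE genes, which belong to neither the SSX nor the CTAG1 family.

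Libraries held 35057239 to 38738065 counts in GFP against 44577774 to 59250663 in T-MGM. The floor of 3 counts was therefore worth 0.0506 to 0.0856 CPM (counts scaled to a common library total). Pairs of libraries correlated more closely within groups (Pearson's r of 0.991 to 0.994 across 12654 genes) than between them (0.971 to 0.974). The genes of the tethered dimer differed little in the libraries labelled T-MGM. MAFG averaged 2458 ± 70.3 normalized counts in GFP against 2358 ± 34.9 in T-MGM (SD, n = 3, adjusted p of 0.237). MITF averaged 19161 ± 46.9 in GFP against 20269 ± 165, without overlap (log2 fold change of 0.08, adjusted p of 4.81e-07), but was lower in T-MGM as TPM (138 against 133), so neither gene was taken as a check of the labels. The 8 melanocytic markers were all expressed, including SOX10 (416 TPM in GFP) and PMEL (252 TPM), and 4 were higher and 4 lower in T-MGM. Of these, DCT, an enzyme of melanin synthesis, fell by 2.49 on the log2 scale (SE 0.03), the 1 difference over 2-fold, and S100A1, a calcium-binding protein, rose by 0.70 (SE 0.02). MLANA (-0.68), TYR (-0.35) and S100B (-0.21) also fell, whereas the rises of SOX10 (0.11), MITF (0.08) and PMEL (0.05) were small. With total counts as library sizes 2 of the 8 were higher and 4 lower. In limma on log2(TPM + 1) 1 was higher and 5 were lower. None of 8 germ cell markers (such as DDX4, DAZL and SYCP3) was expressed, with a summed level of 0.07 to 0.23 TPM in GFP against 0.15 to 0.67 in T-MGM. PTPRC and CD3E, which define leukocytes and T cells, held 3 or fewer counts in every library.

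Many members are near-identical copies, which limits what their counts can say. The coding sequences of MAGEA2 and MAGEA2B were 100% identical over 942 bases, as were those of MAGED4 and MAGED4B over 2223 bases and SSX4 and SSX4B over 564. MAGEA3 and MAGEA6 differed at 18 of 942 positions (98.1% identity), and GAGE13 matched GAGE2A over 98.3% of 351 aligned positions. By contrast, MAGEA1 shared 85.4% with MAGEA4 and 60.9% with MAGEA10. The stretch of coding sequence shown here, 120 bases from position 804 to 923 of each coding sequence (GENCODE 44, GRCh38), carried 6 of the 18 differences between MAGEA3 and MAGEA6. Capitals mark the differing bases.
MAGEA3: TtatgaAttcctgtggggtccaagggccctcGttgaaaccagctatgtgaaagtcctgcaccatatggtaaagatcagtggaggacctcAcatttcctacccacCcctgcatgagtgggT
MAGEA6: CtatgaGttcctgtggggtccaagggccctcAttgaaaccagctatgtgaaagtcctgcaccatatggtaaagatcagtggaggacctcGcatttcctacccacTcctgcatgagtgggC

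A read over one of these bases fits 1 of the genes, whereas a read from a stretch without such a base fits both. Of all 100-base windows of the main transcript, 61.4% occurred in no other gene for MAGEA3 and for MAGEA6, 43.6% for GAGE2A, 18.6% for GAGE13, 0.984% for MAGED4 and 0% for MAGEA2, MAGEA2B, MAGED4B and GAGE2E. All windows were unique in PRAME, MAGEA1, MAGEA4, MAGEA11, MAGEA12, MAGEL2 and MAGED1, and 92.8% were in MAGEA10, whose other windows it shared with the read-through gene MAGEA10-MAGEA5. The deposited counts nevertheless gave MAGEA2 and MAGEA2B between 929 and 1818 counts in each library, so shared reads had been divided between copies by estimation. Values for such copies are therefore given both singly and as sums.

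Of the 78 members, 23 (29.5%) were expressed, defined as 10 or more counts in at least 3 libraries. Among all protein-coding genes the share was 63.8% (12743 genes). A further 27 members had no count in any library, and 28 were counted but stayed under the threshold. For near-identical copies, which of them counted as expressed depended on how shared reads had been divided. Expressed members were 9 of 26 type I MAGE genes (MAGEA1, MAGEA2, MAGEA2B, MAGEA3, MAGEA4, MAGEA6, MAGEA10, MAGEA11 and MAGEA12), 8 of 9 type II MAGE genes (MAGED1, MAGED2, MAGED4, MAGED4B, MAGEE1, MAGEF1, MAGEH1 and MAGEL2), 4 of 13 GAGE genes (GAGE1, GAGE2A, GAGE2E and GAGE13), PRAME and SSX2IP. No gene among 6 PAGE, 5 XAGE, 3 CTAG, 6 CTAGE and 8 SSX genes reached the threshold. The expressed type I genes were all of the MAGEA subfamily, and no MAGEB or MAGEC gene was among them. Of the 23, 19 lie on chromosome X, as do 68 of all 78.

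Genes just under the threshold were mostly carried by few libraries. MAGEB2 held 2, 2 and 0 counts in GFP against 9, 12 and 10 in T-MGM. SSX1, whose product is a transcriptional repressor, held 1, 1 and 2 counts in GFP against 14, 4 and 7 in T-MGM. CTAGE6 was counted in GFP replicate 3 (15) and T-MGM replicate 3 (23) and in no other library. The other members with 10 or more counts somewhere were MAGEB6 and CTAGE15, each highest in GFP replicate 1 (11 and 10 counts), and SSX2B, with 10 counts in T-MGM replicate 1 and 0 elsewhere. Just inside the threshold, MAGEA4 held 26, 11 and 32 counts in T-MGM. CTAG1A and CTAG1B, which encode the antigen NY-ESO-1, held at most 7 counts between them in any library, and neither reached the threshold.

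Levels of different genes were compared as TPM, the share of a library's transcripts corrected for gene length. PRAME was highest in both groups, at 186 ± 4.64 TPM in GFP against 176 ± 2.88 in T-MGM (SD, n = 3), and ranked 337 of 19986 protein-coding genes by its mean over the 6 libraries. It made up 37.6% of the summed TPM of all members in GFP against 35.5% in T-MGM. MAGED1, an adaptor in p75 neurotrophin receptor and apoptosis signalling, followed at 79.6 ± 2.64 TPM in GFP, and MAGED2, which is needed for salt reabsorption by the fetal kidney, at 52.2 ± 1.65. The ranges of these 3 genes did not touch one another in either group. From MAGEF1 (24.7 ± 1.74 TPM in GFP) the order was less firm, because neighbours in the runs MAGEF1, MAGEA2B, MAGEA12 and GAGE2A, MAGEA6, MAGEA2, SSX2IP had overlapping ranges in GFP.

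**Figure D1:**
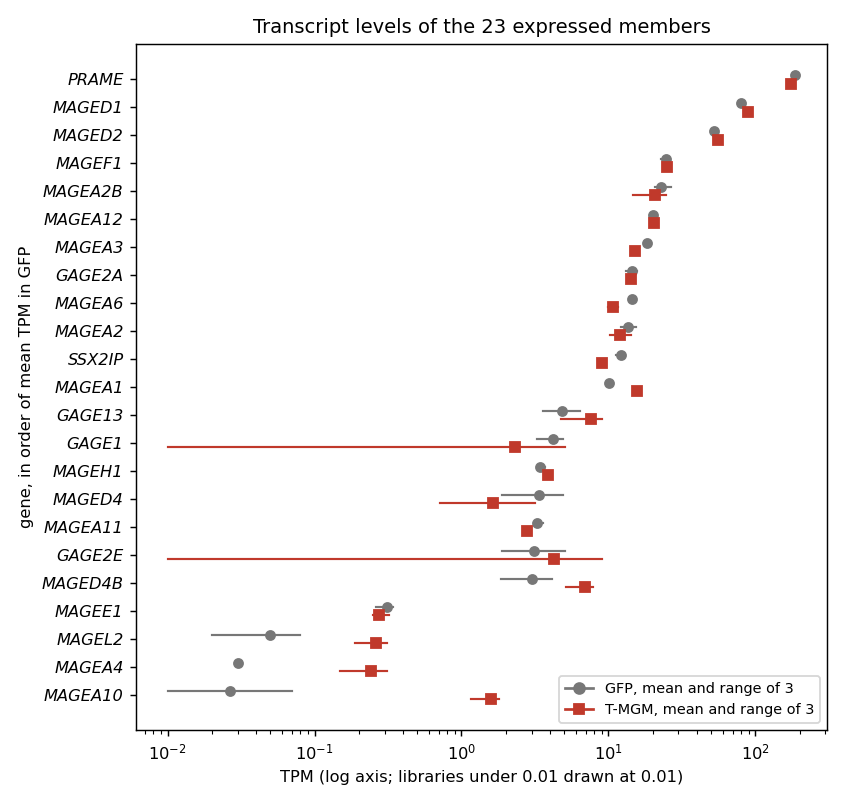
Mean TPM (log axis) and range over 3 libraries of the 23 expressed members in GFP (grey circles) and T-MGM (red squares), in order of their mean in GFP. PRAME, MAGED1 and MAGED2 stood apart at the top, and MAGEL2, MAGEA4 and MAGEA10 held the lowest places in GFP, where all 3 averaged 0.05 TPM or less.

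At the other end, MAGEL2, MAGEA4 and MAGEA10 averaged 0.05, 0.03 and 0.0267 TPM in GFP, with overlapping ranges. In T-MGM, MAGEA10 averaged 1.58 ± 0.362 TPM and lay above MAGEE1 (0.273 ± 0.0404), MAGEL2 (0.263) and MAGEA4 (0.243), whose ranges overlapped. MAGEA1 moved from the 12th place in GFP (10.1 ± 0.205 TPM) to the 7th in T-MGM (15.8 ± 0.394), where its range overlapped that of MAGEA3. The summed TPM of all 78 members was 496 ± 9.31 in GFP against 495 ± 10.7 in T-MGM.

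The design asks which genes differed between T-MGM and GFP, and DESeq2, fitted to the whole table, gave 28 of the 78 members an adjusted p. At an adjusted p at or under 0.05, 12 members were higher in T-MGM and 2 were lower. Of all 19166 genes with an adjusted p, 19.2% were higher and 19.2% lower. With a change of over 2-fold as well, 4 members were called higher (MAGEA10, MAGEA4, MAGEL2 and MAGEB2) and 0 lower, against 3.26% and 1.37% of all genes tested. At an unadjusted p under 0.05 the number lower by over 2-fold was also 0, and edgeR called 1 (MAGED4). MAGEA10 and MAGEA4 reached the expression threshold through T-MGM libraries alone. MAGEL2 held enough counts in 3 T-MGM libraries but in only 1 GFP library, so it too needed T-MGM libraries to reach the threshold. MAGEB2 did not reach it. These numbers of higher and lower members therefore cannot be read as a share of the expressed members. The median log2 fold change of the 28 was 0.14, and that of all tested genes was -0.0028. For 17 of the 28 no library of a group lay within the range of the other, with T-MGM above in 14 and below in 3, while 46.8% of all tested genes did not overlap in either direction.

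The split between higher and lower members depended on the scaling. The 12 higher and 2 lower members (85.7% higher) became 7 and 3 (70.0%) with total counts as library sizes, 11 and 4 (73.3%) in edgeR's quasi-likelihood test with TMM factors, and 4 and 4 in limma on log2(TPM + 1). On the TPM scale the median of all genes was itself shifted to -0.13, and with total counts to -0.063, beside -0.0097 in the main scaling, each over 12386 to 12654 genes.

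**Figure D2:**
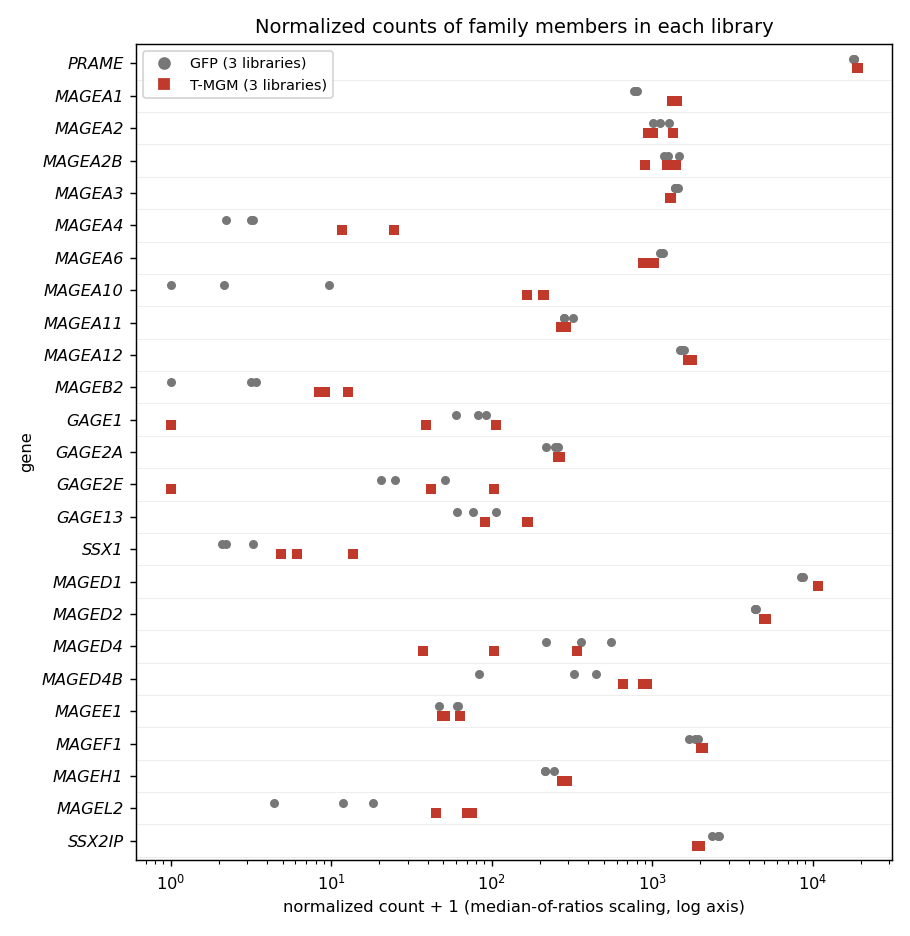
Normalized count plus 1 (log axis) in each of 3 GFP (grey circles) and 3 T-MGM (red squares) libraries for the 23 expressed members and for MAGEB2 and SSX1. MAGEA10, MAGEA4 and MAGEL2 had every T-MGM library above every GFP library by a wide gap, MAGEA1 by a narrower one, and the libraries of GAGE1, GAGE2E and MAGED4 were scattered over the width of both groups.

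Among type I MAGE genes, MAGEA10 (ENSG00000124260.12, chrX:152133310-152138578, minus strand) showed the greatest difference. It held 0, 8 and 1 counts in GFP replicates 1 to 3 against 180, 217 and 280 in T-MGM. Normalized for depth, the T-MGM libraries held 164, 212 and 207 counts, all above the highest GFP library (8.66). The log2 fold change was 5.86 (SE 0.93, adjusted p of 2.66e-09, DESeq2). As CPM of the counts summed over each group, T-MGM was 54.9-fold higher, with an exact 95% interval from 28.7 to 121 that covers counting error only. GFP replicate 2 held 8 of the 9 GFP counts, and without it the log2 fold change was 8.38. The read-through gene MAGEA10-MAGEA5, which shares exon sequence with MAGEA10, held 0 counts in GFP against 3, 7 and 0 in T-MGM.

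MAGEA4 (ENSG00000147381.11, chrX:151912495-151925171, plus strand), an antigen targeted by engineered T cells, was also rare in GFP. Its counts were 1, 2 and 2 in GFP against 26, 11 and 32 in T-MGM, and the groups did not overlap. The log2 fold change was 3.36 (SE 0.87, adjusted p of 0.000431). Summed over the groups, the ratio was 10.1, with an exact 95% interval from 4.11 to 32.0 for counting error. The antisense gene MAGEA4-AS1 held no count in any library.

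MAGEB2, which did not reach the expression threshold, had the same direction at counts near the floor. Its log2 fold change was 2.58 (SE 1.10, adjusted p of 0.049), and its ratio of summed counts was 5.66 with an exact interval from 2.0 to 22.1. The call was lost without any 1 of the 6 libraries (adjusted p from 0.0768 to 0.188), and over all alternatives the adjusted p ran from 0.0353 to 0.188. SSX1 reached 2.26 (SE 1.17, adjusted p of 0.123), with a ratio of 4.56 and an interval from 1.57 to 18.0. Every T-MGM library lay above every GFP library in both genes, at 14 or fewer counts.

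MAGEA1 (ENSG00000198681.7, chrX:153179284-153183880, plus strand), whose product was the antigen that gave the family its name, was well counted in both groups. Normalized counts were 806, 770 and 797 in GFP against 1351, 1320 and 1424 in T-MGM. The groups stood apart, with a log2 fold change of 0.79 (SE 0.06, adjusted p of 4.7e-38), a 1.73-fold difference. It passed in all 17 alternative analyses, with values from 0.59 to 0.81.

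The other MAGEA genes moved little. MAGEA12 held 1585, 1516 and 1481 normalized counts in GFP against 1663, 1777 and 1680 in T-MGM, without overlap, a log2 fold change of 0.16 (SE 0.05, adjusted p of 0.00353). The value shrank to 0.11 with total counts (adjusted p of 0.0725) and to 0.014 on log2(TPM + 1), so its call depended on the scaling (adjusted p from 0.00156 to 0.83 over all alternatives). Its gene span overlaps that of CSAG4 on the same strand in the annotation, although all its 100-base windows were unique. MAGEA11, an androgen receptor coregulator, averaged 295 ± 22.2 in GFP against 283 ± 12.6 in T-MGM, with overlapping groups and a 95% interval of the log2 fold change from -0.29 to 0.17.

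MAGEA3 and MAGEA6, whose differing bases are printed above, were the type I members whose T-MGM libraries all lay below the GFP libraries. MAGEA6 (chrX:152766136-152769716, minus strand) held 1175, 1117 and 1129 normalized counts in GFP against 1025, 942 and 874 in T-MGM. It fell by 0.27 on the log2 scale (SE 0.07, adjusted p of 0.000123), with no overlap. MAGEA3 (chrX:152698767-152702347, plus strand) held 1393, 1379 and 1439 in GFP against 1305, 1312 and 1285 in T-MGM, also without overlap. Its log2 fold change of -0.11 (SE 0.05) had an adjusted p of 0.0712, and it passed downwards with total counts (-0.16) and on log2(TPM + 1) (-0.25). Added up, the genes averaged 2544 ± 41.2 in GFP against 2247 ± 85.1 in T-MGM, a log2 fold change of -0.18 (SE 0.04, adjusted p of 3.14e-05). MAGEA3 took 54.2% to 59.5% of their joint count across the 6 libraries.

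For MAGEA2 and MAGEA2B (chrX:152749863-152753884 and chrX:152714586-152718607, on opposite strands), which no read of the main transcript can tell apart, neither gene passed singly. MAGEA2 took from 39.9% to 59.9% of the joint count. The sum spread far less than its parts: its coefficient of variation was 2.49% in GFP against 2.84% in T-MGM, against 11.3% and 19.4% for MAGEA2. The sum averaged 2440 ± 60.6 in GFP against 2281 ± 64.8 in T-MGM, a log2 fold change of -0.099 (SE 0.04, adjusted p of 0.0339), which is smaller than the shift of the median gene on the TPM scale.

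**Figure D3:**
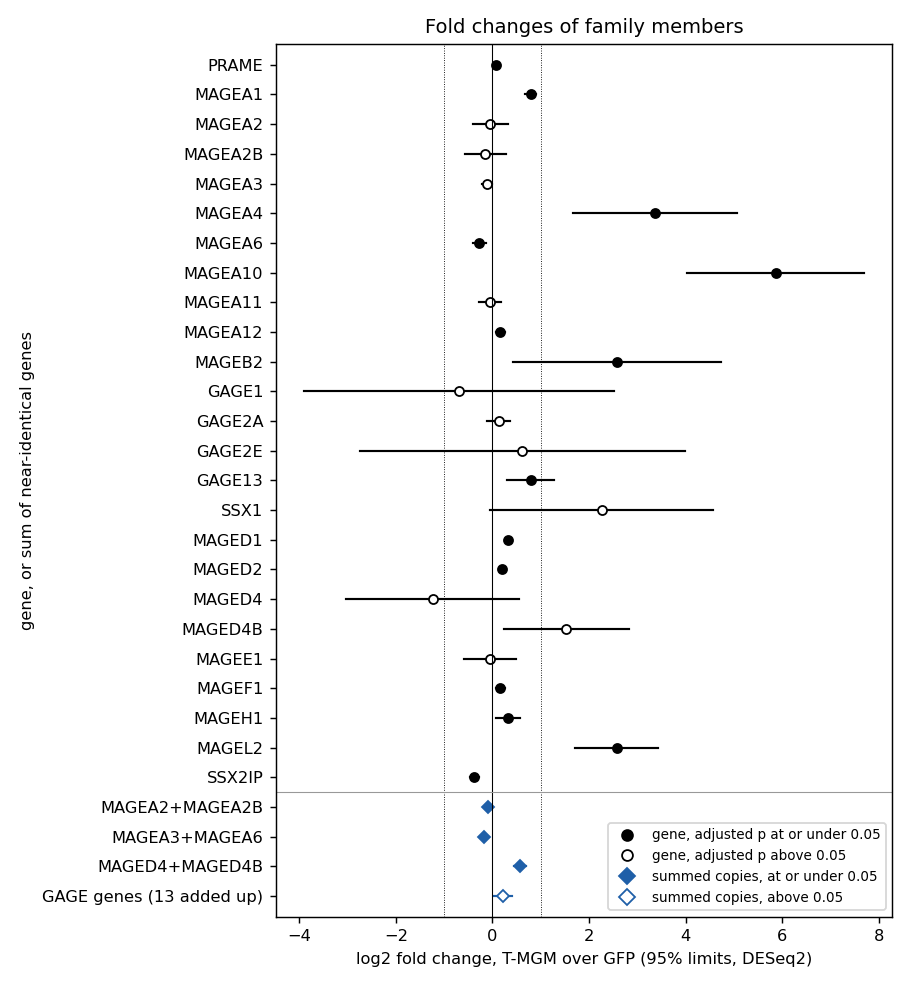
Log2 fold change of T-MGM over GFP with its 95% limits (DESeq2) for 25 members (black) and for the sums of near-identical copies (blue diamonds). Filled marks have an adjusted p at or under 0.05. Of the filled marks, MAGEA10, MAGEA4, MAGEB2 and MAGEL2 lay beyond the dotted line of a 2-fold change at log2 of 1. Open marks beyond a dotted line were SSX1 (2.26) and MAGED4B (1.53) above and MAGED4 (-1.24) below. The sum of MAGED4 and MAGED4B had limits of 0.44 and 0.70, far closer together than those of either gene.

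Of the 9 type II MAGE genes, 8 had an adjusted p, and of these 5 passed upwards and 0 downwards. Of all tested genes, 19.2% passed in each direction. MAGED1 held 8748, 8594 and 8427 normalized counts in GFP against 10821, 10770 and 10738 in T-MGM. It rose by 0.33 on the log2 scale (SE 0.02, adjusted p of 6.02e-56), or 1.25-fold, and passed in all 17 alternative analyses (0.15 to 0.34). MAGED2 held 4390, 4419 and 4387 in GFP against 5028, 4985 and 5143 in T-MGM, a rise of 0.20 (SE 0.03, adjusted p of 3.16e-12) that did not pass on the TPM scale (0.085, adjusted p of 0.115, with a range of 1.54e-13 to 0.213 over the alternatives). The groups overlapped in neither gene.

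MAGEL2 (ENSG00000254585.4, chr15:23643549-23647867, minus strand), an imprinted gene of the Prader-Willi region whose product guides endosomal protein recycling, was the type II gene with the largest change. It held 9, 16 and 3 counts in GFP against 76, 45 and 101 in T-MGM. Depth-normalized values were 10.8, 17.3 and 3.43 in GFP against 69.3, 43.9 and 74.5 in T-MGM, and the groups did not overlap. The log2 fold change was 2.57 (SE 0.43, adjusted p of 2.28e-08), and the ratio of summed counts was 5.79, with an exact 95% interval from 3.90 to 8.91. Without GFP replicate 2 the log2 value was 3.16, and without any 1 library the adjusted p stayed at or under 3.37e-05.

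MAGEF1, a ubiquitin ligase partner, and MAGEH1 changed by small amounts. MAGEF1 held 1702, 1855 and 1938 normalized counts in GFP against 2032, 2023 and 2082 in T-MGM (log2 fold change 0.16, SE 0.05, adjusted p of 0.00247). The groups did not overlap, but the value was 0.01 on log2(TPM + 1) and the call was lost with total counts (0.11, adjusted p of 0.0617) and without GFP replicate 1 (0.11, adjusted p of 0.0762). The adjusted p of MAGEF1 ran from 0.000581 to 0.905 over the alternatives. MAGEH1 held 242, 215 and 215 in GFP against 272, 292 and 277 in T-MGM, without overlap (0.32, SE 0.12, adjusted p of 0.0256). Its call was lost in 11 of 17 alternative analyses (adjusted p from 0.0203 to 0.353), among them those without GFP replicate 2 or 3 and without T-MGM replicate 1, 2 or 3. MAGEE1 averaged 55.4 ± 8.44 in GFP against 53.7 ± 7.66 in T-MGM, with overlapping groups and a 95% interval from -0.59 to 0.48.

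MAGED4 and MAGED4B, identical in coding sequence (chrX:52184876-52192268, plus strand, and chrX:52061827-52069219, minus strand), traded counts between libraries. MAGED4 held 552, 218 and 360 normalized counts in GFP against 36.5, 341 and 103 in T-MGM. MAGED4B held 82.7, 446 and 326 in GFP against 924, 660 and 881 in T-MGM, so that a library low in the first was high in the second. MAGED4 took from 3.8% of their joint count in T-MGM replicate 1 to 87.0% in GFP replicate 1. Singly, MAGED4 gave a log2 fold change of -1.24 (SE 0.91, adjusted p of 0.316) and MAGED4B one of 1.53 (SE 0.66, adjusted p of 0.0529).

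Their sum was steady within groups, at 634, 664 and 685 in GFP against 961, 1000 and 984 in T-MGM. The groups did not overlap, and the sum rose by 0.57 on the log2 scale (SE 0.07, adjusted p of 2.8e-16), with a coefficient of variation of 3.87% in GFP against 2.02% in T-MGM. The files cannot place a read in either copy, so the signs of the single genes cannot be read separately. Without T-MGM replicate 2, MAGED4 alone would have been called lower (-2.43), and edgeR called it lower with all libraries (-1.25). MAGED4B passed upwards in 7 of 17 alternative analyses, 1 of which was the sum, among them edgeR (1.53) and the fit without GFP replicate 1 (1.09), and its adjusted p ran from 1.8e-65 to 0.189.

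**Figure D4:**
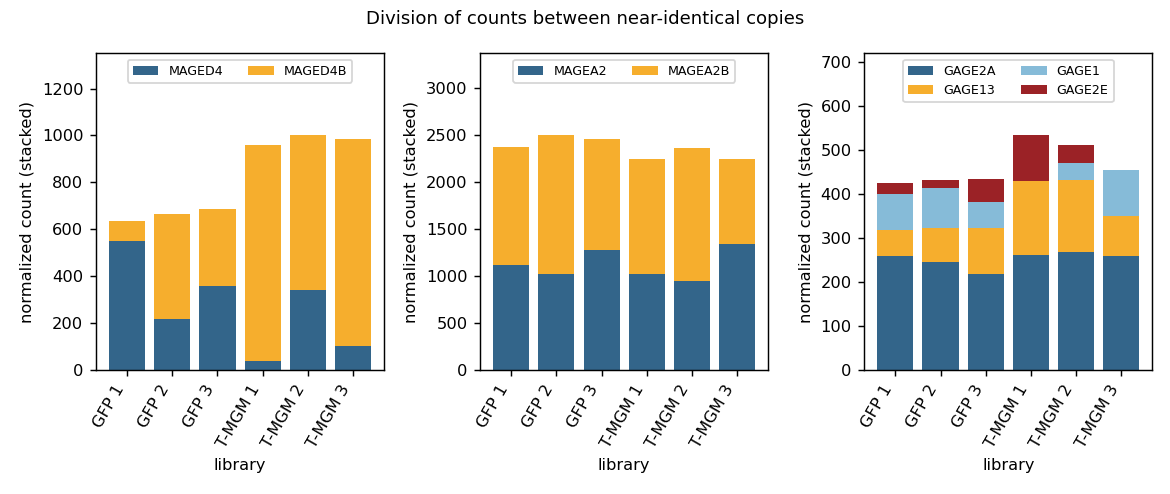
Normalized counts of near-identical genes stacked in each library: MAGED4 and MAGED4B (left), MAGEA2 and MAGEA2B (centre), and the 4 expressed GAGE genes (right). The height of a column is the joint count, which was higher in all T-MGM libraries for MAGED4 with MAGED4B, while the boundary between copies moved from library to library.

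The spread between libraries was compared with the share of unique windows in the 16 expressed members with a mean of at least 200 normalized counts. The 5 genes with under 50% unique windows (GAGE2A, MAGEA2, MAGEA2B, MAGED4 and MAGED4B) had a largest within-group coefficient of variation of 8.92% to 100% (median 22.1%). For the 11 genes above 50% it was 0.811% to 7.98% (median 3.92%). The 7 expressed members with lower means spread by 15.2% to 144% whatever their share of unique windows, among them GAGE1, at 112% with 87.8% of its windows unique.

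The GAGE genes form a tandem array on chromosome X, and 8 of the 13 had no count. All 100-base windows of GAGE2E also occurred in GAGE12G, which had no count. GAGE12C, GAGE12D and GAGE12F, likewise without counts, had 0% unique windows as well. The counts therefore cannot tell which of these copies was expressed. GAGE2A took the largest part of the GAGE count in every library, from 49.1% to 61.0%. GAGE13 held 59.96, 75.8 and 106 normalized counts in GFP against 168, 164 and 90.0 in T-MGM, a log2 fold change of 0.79 (SE 0.25, adjusted p of 0.00468), and the groups overlapped. GAGE1 and GAGE2E were each at 0 in a T-MGM library, replicates 1 and 3 respectively, while GAGE1 held 106 in T-MGM replicate 3 and GAGE2E 103 in replicate 1. All 13 genes added up gave 425, 433 and 433 in GFP against 533, 510 and 455 in T-MGM, without overlap, and a log2 fold change of 0.21 (SE 0.09, adjusted p of 0.0572). The call of GAGE13 was thus not seen in the sum, and it was lost without GFP replicate 1 or 2 and without T-MGM replicate 1 or 2 (adjusted p from 0.0611 to 0.265).

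PRAME (ENSG00000185686.18, chr22:22547701-22559361, minus strand) had the highest count of the members and the smallest log2 fold change among those that passed. Normalized counts were 17883, 18144 and 18128 in GFP against 19080, 19005 and 19175 in T-MGM. The groups did not overlap, and a log2 fold change of 0.08 (SE 0.02, adjusted p of 1.09e-06), or 1.06-fold, passed beside a spread within groups of 0.811% and 0.446% (coefficients of variation). In TPM the order turned: GFP held 181, 189 and 189 and T-MGM 176, 179 and 173, for a value of -0.083 on log2(TPM + 1) (limma, adjusted p of 0.0491), and with total counts the difference was 0.027 (adjusted p of 0.177). Over all alternatives the adjusted p ran from 2.3e-08 to 0.177. The sign of PRAME thus differed between scalings, and its log2 value lay between -0.084 and 0.091 in all of them. An unnamed antisense transcript that overlaps PRAME held 5 to 7 counts in GFP against 20 to 30 in T-MGM, against 14913 or more for PRAME.

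**Figure D5:**
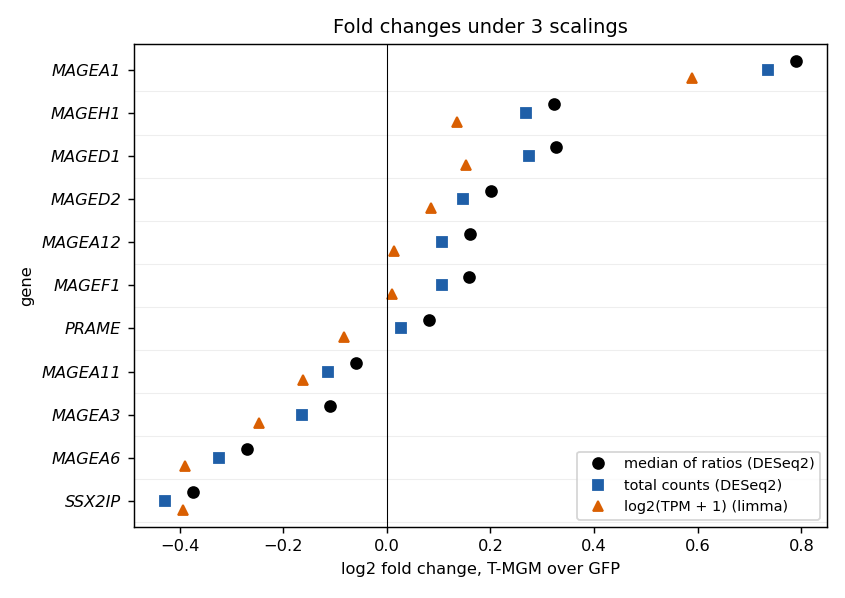
Log2 fold change of T-MGM over GFP for 11 members, scaled by the median of ratios (black circles), by total counts (blue squares) and as log2(TPM + 1) (orange triangles). MAGEA1 and MAGED1 stayed above 0 and MAGEA6 and SSX2IP below it on all 3 scales, whereas PRAME crossed 0 on the TPM scale and MAGEA12 and MAGEF1 came to within 0.02 of it.

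SSX2IP was the other member that passed downwards. It held 2572, 2352 and 2594 normalized counts in GFP against 1908, 1903 and 1984 in T-MGM, without overlap, and fell by 0.37 on the log2 scale (SE 0.04, adjusted p of 1.66e-16). It passed in all 17 alternative analyses (-0.43 to -0.18). No true SSX gene was expressed beside it.

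Promoter sequences (RefSeq, GRCh38.p14, 250 bases before to 50 after a start) were at hand for 69 members in 90 windows, several of which belonged to the same gene, and those of MAGEA1 and MAGEA10 were not used here. They were searched on both strands for CACGTG and CATGTG, the E-boxes that MITF binds, and for TGCTGA, the core of the MAF recognition element. CACGTG was found in 24 of 90 windows (26.7%) against 7.26% of all 35116 windows of that length. Of those 24, 13 belonged to GAGE genes, which share their sequence and so are not separate cases, and 5 to CTAGE genes, of which CTAGE4, CTAGE6 and CTAGE8 had the same window. Among the windows of expressed members, 4 of 31 (12.9%) held it. CATGTG was found in 6.67% of the members' windows, 6.45% of those of expressed members and 11.1% of all. TGCTGA was found in 18 of the 90, 16.1% of those of expressed members and 17.3% of all. TGACNNNGC (N for any base) and CCGGAAG were also searched. The former was in 16.7% of the members' windows, 0 of the 31 of expressed members and 13.3% of all. For CCGGAAG these shares were 5.56%, 9.68% and 10.3%. The windows of MAGEL2 and GAGE2A are shown because they hold such letters in a gene called over 2-fold and in the GAGE array; capitals mark CATGTG and TGCTGA (read on the other strand as TCAGCA) in the first and CACGTG in the second.
MAGEL2: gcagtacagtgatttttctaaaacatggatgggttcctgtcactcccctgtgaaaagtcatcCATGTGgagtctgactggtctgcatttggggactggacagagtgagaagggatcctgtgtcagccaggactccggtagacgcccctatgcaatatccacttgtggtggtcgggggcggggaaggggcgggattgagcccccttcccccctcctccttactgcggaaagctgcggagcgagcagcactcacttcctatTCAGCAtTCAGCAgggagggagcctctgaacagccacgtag
GAGE2A: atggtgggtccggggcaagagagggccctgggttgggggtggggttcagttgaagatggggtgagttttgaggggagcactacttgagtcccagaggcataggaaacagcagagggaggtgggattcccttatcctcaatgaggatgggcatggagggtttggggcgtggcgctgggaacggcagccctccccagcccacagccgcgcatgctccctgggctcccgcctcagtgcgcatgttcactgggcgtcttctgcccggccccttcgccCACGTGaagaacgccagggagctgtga

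The first window lies at chr15:23647818-23648117 (minus strand) and the second at chrX:49589246-49589545 (plus strand). MAGEL2 held the letters and rose 5.93-fold, GAGE2A held them and had a log2 fold change of 0.13 (adjusted p of 0.471), and 4 of the 5 windows of MAGEA4 held none of these letters. No binding was measured in these libraries, so a match is a description of the letters only.

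Neighbouring genes were compared because the MAGEA genes share a stretch of chromosome X. The 9 expressed MAGEA genes span 3.50 Mb. Of 37 other genes with a mean of at least 50 normalized counts inside this span or within 1 Mb of its ends, 13 were higher, 4 were lower, and the median log2 fold change was 0.11. Of 403 such genes on all of chromosome X, 102 were higher and 92 lower (median 0.013), and of 12632 in the genome 3327 were higher and 3488 lower (median -0.0099). Around GAGE13, 16 of 26 neighbours were higher and 1 was lower (median 0.20), and around MAGEL2 0 of 8 were higher and 3 were lower (median -0.19). Uneven numbers were not particular to these 2 regions. Around PRAME, 9 of 16 were higher and 1 was lower (median 0.083), and around SSX2IP 2 of 16 were higher and 9 lower (median -0.23). Around MAGEF1 the numbers were nearly even, with 5 of 26 higher and 6 lower. These are descriptions of single regions, without a test of position.

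Genes that act on or with the members changed by small amounts in both directions, and none of them was called over 2-fold. The counts of these lists stand beside 19.2% higher and 19.2% lower among all tested genes. Of 16 regulators of cancer-testis genes, 15 had an adjusted p, 5 were higher and 6 lower, around a median of -0.017. EZH2 was counted both here and among the PRAME partners below. TET2, a demethylating dioxygenase, averaged 1575 ± 137 normalized counts in GFP against 2589 ± 74.0 in T-MGM, a rise of 0.71 on the log2 scale (SE 0.05, adjusted p of 1.74e-44). SETDB1, a histone H3 lysine 9 methyltransferase, averaged 1213 ± 23.4 and 837.5 ± 10.5 and fell by 0.53 (SE 0.06, adjusted p of 8.05e-19). The de novo DNA methyltransferase DNMT3A fell by 0.34 (SE 0.05) and the deacetylase HDAC1 by 0.17 (SE 0.02).

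Maintenance methyltransferase DNMT1 rose by 0.14 (SE 0.02) and TET1 by 0.36 (SE 0.05). Neither of the latter passed on the TPM scale (0.057 and 0.16), where the list had 1 higher and 6 lower.

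Among 9 ubiquitin ligases, targets and partners of MAGE proteins, 7 had an adjusted p, 1 was higher (TRIM27) and 4 were lower (median -0.075). PRKAA1, the AMP-activated kinase subunit degraded by the MAGEA3 and MAGEA6 ligase, fell by 0.20 (SE 0.03), DCAF12 by 0.20 (SE 0.06), PJA1 by 0.15 (SE 0.06) and the deubiquitinase USP7 by 0.075 (SE 0.03). TRIM27 had a value of 0.10 that turned to -0.13 on the TPM scale. Of 8 PRAME partners, 2 were higher (RARA, the retinoic acid receptor that PRAME represses, by 0.38 with SE 0.05, and ELOB by 0.15, which turned to -0.013 in TPM) and 2 lower (EZH2 by -0.17 and CUL2 by -0.14). Of the MAGE-domain genes NDN, NSMCE3 and TRO, which the name rule left out, NSMCE3 passed (0.19, SE 0.08, adjusted p of 0.047) and did so neither with total counts nor in TPM.

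Other cancer-testis genes were held against the members through a list of 92 genes, of which 16 were expressed and 42 had no count. In that list 19 genes had an adjusted p, and of these 1 was higher and 5 lower (median -0.098). Of all tested genes, 19.2% were higher and 19.2% lower. CSAG1, which lies between the MAGEA genes, rose by 0.35 (SE 0.08, adjusted p of 7.71e-05). ROPN1, a sperm sheath protein, fell by 0.70 (SE 0.15, adjusted p of 2.19e-05), IGF2BP3, an RNA-binding protein, by 0.21 (SE 0.03), the mitotic kinesin KIF2C by 0.20 (SE 0.03), ATAD2 by 0.16 (SE 0.02) and CEP55 by 0.11 (SE 0.04). Total counts and TPM left the sign of these 6 genes in place.

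Some markers of other cell types moved with the groups. LUM rose by 0.77 (SE 0.10) and PDGFRB by 1.37 (SE 0.58, adjusted p of 0.0482) among 3 fibroblast markers, whose summed level was 3.75 to 4.53 TPM in GFP against 4.17 to 6.55 in T-MGM. CD68, the 1 leukocyte marker of 3 that was expressed, rose by 0.45 (SE 0.08), with a summed level of 10.03 to 11.5 TPM in GFP against 11.2 to 15.3 in T-MGM. LUM and CD68 passed with total counts, but PDGFRB did not (1.32, DESeq2 adjusted p of 0.0611). Neither LUM (0.34, adjusted p of 0.0607) nor CD68 (0.245, adjusted p of 0.110) passed in limma on log2(TPM + 1). The keratinocyte markers summed to 0.16 TPM or less and the endothelial markers to 0.34 TPM or less, and none of those 5 genes passed. Fewer cells expressing a gene and less RNA per cell cannot be told apart in these bulk libraries, and the part of any such marker in the members' differences was not tested.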

How the data were processed

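RNA of 6 WM164 libraries (3 GFP, 3 T-MGM) was sequenced. Per the labels the library kit was not stranded, whereas the study's methods name a strand-specific kit, so overlapping antisense genes may share reads. The authors trimmed reads with cutadapt 1.8.1 and aligned them with STAR 2.7.7a to GRCh38, per the labels. The deposited counts were whole numbers, described in the methods as unique-read counts, but they behaved as rounded expected counts of RSEM 1.3.0: MAGEA2 and MAGEA2B, without any unique 100-base window, had 929 or more in each library. The authors' TPM values were used as deposited for levels. No sample was left out.

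Counts were tested across all 58870 genes with DESeq2 1.42.0 (R 4.3.3; 2-sided Wald test, median-of-ratios scaling, independent filtering, Benjamini-Hochberg adjustment). A call needed an adjusted p at or under 0.05 and, where stated, over 2-fold. Alternatives used edgeR 4.0.16, limma 3.58.1 on log2(TPM + 1) or log2(TPM + 0.1), other scalings and filters, GC content and length offsets, summed copies, a replicate block and fits without each library. Scripts were tested on simulated data. Normalized counts are counts divided by size factors. GENCODE 44 (GRCh38) matched 76 of 78 members. Depth was 35057239 to 59250663 counts, and exact intervals of summed counts cover counting error only, whereas intervals of log2 fold changes are Wald limits that include the spread between libraries. Members, lists and the rule for named genes were chosen with earlier results of these data known. All expressed members were named, with those just under the threshold that held 10 or more counts in a library, and up to 6 passing genes of each other list. Of the lists, the melanocytic genes and those of other cell types served as markers. A few genes of these lists are not reported here and were left out of their counts.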

Additional observations from a re-analysis of the deposited data

How the results depend on the processing

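Fold changes of 25 members under 17 alternatives gave 408 values, of which 324 kept their sign and side of 0.05, 44 lost the call, 19 gained it and 21 turned sign. MAGEA10, MAGEA4, MAGEL2, MAGEA1, MAGED1, MAGEA6 and SSX2IP kept their calls wherever an adjusted p was given. Of the 12 members higher and 2 lower, total counts left 7 higher. In edgeR 4 were lower, 1 of them over 2-fold (MAGED4). On log2(TPM + 1) 4 were higher, 4 lower and 2 higher by over 2-fold; on log2(TPM + 0.1) these were 4, 4 and 2; without a filter on low values they were 6, 4 and 1. Leaving out 1 library each gave 9 to 10 higher and 2 to 3 lower, and 3 to 4 and 0 to 1 over 2-fold. The number of expressed members ran from 18 (10 counts in all 6 libraries) to 26 (5 counts in 3), beside 23.

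PRAME turned to -0.083, -0.084 and -0.083 in the 3 TPM analyses, and GAGE2A to -0.026, -0.027 and -0.026. GAGE2E turned to -0.11, -0.96 and -0.11 there and ran from -0.61 to 1.21 without single libraries. Summed copies turned MAGED4 to 0.57 and GAGE1 to 0.21 by construction, since the sum holds other genes. Without single libraries MAGEA11 ran from -0.092 to 0.0052, MAGEA2 from -0.21 to 0.059, MAGEA2B from -0.29 to 0.018 and MAGEE1 from -0.17 to 0.021. For the other turns the cause was not tested.

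Replicate numbers did not pair the libraries: the deviations of same-numbered libraries correlated at -0.0067, -0.058 and 0.029. With a replicate block 9 members were higher and 2 lower, GAGE2E was at -0.041, and MAGEB2 (2.81), MAGEH1 (0.32) and GAGE13 (0.79) lost their calls. Depth limits MAGEA4, MAGEB2 and SSX1, whose GFP libraries held 2 or fewer counts each.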

Other observations

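Besides the 78 protein-coding members, 17 genes of the table that were not protein-coding matched the same names, most of them CTAGE and SSX pseudogenes. None of the 17 was expressed and none passed the test. The highest count among them in any library was 8, of the pseudogene CTAGE3P in GFP replicate 1.

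Near-identical copies were not all divided alike. SSX4 and SSX4B, under the threshold, had equal counts in every library, at 3, 0 and 2 in GFP against 2, 2 and 7 in T-MGM. MAGED4 and MAGED4B, also 100% identical in coding sequence but at far higher counts, were divided unequally. Unique 100-base windows made up 0.36% of SSX4 and 4.24% of SSX4B, beside 0.984% of MAGED4 and 0% of MAGED4B. XAGE1A and XAGE1B had equal counts in 5 of the 6 libraries.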
